A study of Mus musculus with 34 samples.

Results

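The Bar-class homeobox genes Barhl1, Barhl2, Barx1 and Barx2 encode DNA-binding transcription factors named after the Bar proteins of the fly eye. Barhl1 and Barhl2 act in the developing nervous system, where they take part in the specification, migration and survival of neurons in the spinal cord, cerebellum, retina and inner ear. Barx1 is a factor of the stomach mesenchyme and of the tooth-forming mesenchyme, and Barx2 acts in ectodermal appendages, cartilage and skeletal muscle. CpG islands are stretches rich in the CpG dinucleotide that lie over many gene starts and stay largely unmethylated in normal tissues, and those of developmental regulators such as homeobox genes are often bound by Polycomb proteins in embryonic stem (ES) cells.

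All array probes annotated to these 4 genes were taken, 87 of 97651 probes in all. They were joined into islands, which are runs of at least 3 probes with gaps of at most 500 bases between neighbours. This gave 13 islands of 13616 in the whole series, and 0 of the 87 probes fell outside an island. Islands with exactly 3 probes, the minimum, were Barhl1 +7.9 kb, Barhl2 +6.2 kb and Barhl2 +9.7 kb. The genes were chosen by the IMS of their islands over all groups of samples, so their levels and differences are given below as a description, with no p-value of their own. Where they are counted among the islands called in a fit over all islands, the share of all islands called is given beside the count.

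DNA methylation was measured by methylated DNA immunoprecipitation (mDIP), in which sonicated, denatured DNA is pulled down with an antibody against 5-methylcytidine. For each of 34 samples 1 Agilent array of mouse CpG islands took up both the bound DNA, labelled with Cy5, and the input DNA, labelled with Cy3. The log10 ratio of bound over input was turned into a Z-score over all probes of its array, and averaging the Z-scores of an island's probes gave its island methylation score (IMS). An IMS of 0 is the mean of that array, and the study took an IMS above 0.75 as methylated, so the score ranks islands within an array and gives no percentage of methylated DNA. In a mixture of cells, methylation of more cells and more methylation in each cell cannot be told apart.

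Adult tissue was represented by 16 arrays, 2 each of colon, pancreas, brain, kidney, liver, lung, muscle and spleen, labelled as 3 months old. The methods name C57Bl/6 as the source of mouse DNA. Post-implantation embryos gave 5 arrays, 1 at each of 8.5, 9.5, 10.5, 11.5 and 12.5 days post coitum. Undifferentiated ES cells were 3 lines with 1 array each, EB5, J1 and TT2. ES cells differentiated in vitro gave 5 arrays. These were embryoid bodies (aggregates), cells exposed to retinoic acid, endoderm (replicates 1 and 2) and mesoderm, the last 3 arrays from an EB5 derivative carrying the Gsc-gfp and Sox17-huCD25 reporters that was treated with Activin A and sorted. The labels give TT2 as the parent of the embryoid bodies and of the retinoic acid cells, as does the study's own description of its array data, whereas its methods name J1 for the latter. Teratomas, tumours grown from ES cells, gave 2 arrays labelled J1, whereas the methods name the lines D3 and C4 in NOD-SCID hosts. Host tissue in them was not measured. The last 3 arrays were β cells sorted from pancreatic islets of Pdx1-GFP mice, Min6 (a β cell line from a mouse insulinoma) and αTC (an α cell line from a mouse glucagonoma), with no replicates. No RNA was measured, so tissue labels could not be set against marker genes, and nothing in the labels says whether the arrays of a group came from separate animals or cultures, so an SD measures only the spread between arrays.

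The 34 arrays lay on 23 slides scanned on 16 days. Input signal exceeded background by a median factor of 3.07 to 7.34 per array. For 1 array the deposited table went against the scanner file. The column labelled J1 correlated with the J1 scanner file at r = 0.113 over probes, whereas the other 33 columns gave 0.894 to 0.991, so results with undifferentiated ES cells are given with and without J1. A second array, brain replicate 2, stood apart from the other adult arrays at several Barhl islands, and its values are given where it matters.

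RefSeq promoters (assembly GRCm38.p6) were found for 3 of the 4 genes, and they are shown because the start island of each of these genes held more probes than its other islands and read higher in both pancreatic cell lines than on any other array. Each sequence is the 250 bases before a transcription start, read 5′ to 3′ on the gene's strand, with every CG dinucleotide in capitals. Barhl1 has 2 starts in the table, chr2:28912496-28912745 and chr2:28916669-28916918 (both minus strand), and which of them the array annotation counts from was not determined. The window of Barhl2 is chr5:106458167-106458416 (minus strand) and that of Barx1 is chr13:48662786-48663035 (plus strand).
Barhl1, start at the lower position: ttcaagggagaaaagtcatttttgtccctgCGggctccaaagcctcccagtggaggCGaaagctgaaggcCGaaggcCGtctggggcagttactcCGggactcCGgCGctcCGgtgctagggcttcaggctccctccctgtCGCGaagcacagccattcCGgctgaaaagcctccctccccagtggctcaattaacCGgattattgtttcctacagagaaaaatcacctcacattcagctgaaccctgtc
Barhl1, start at the higher position: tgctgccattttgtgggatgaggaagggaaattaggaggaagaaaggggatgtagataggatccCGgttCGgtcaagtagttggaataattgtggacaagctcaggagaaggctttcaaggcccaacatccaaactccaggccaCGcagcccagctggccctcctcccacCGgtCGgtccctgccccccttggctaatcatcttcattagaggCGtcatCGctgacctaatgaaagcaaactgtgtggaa
Barhl2: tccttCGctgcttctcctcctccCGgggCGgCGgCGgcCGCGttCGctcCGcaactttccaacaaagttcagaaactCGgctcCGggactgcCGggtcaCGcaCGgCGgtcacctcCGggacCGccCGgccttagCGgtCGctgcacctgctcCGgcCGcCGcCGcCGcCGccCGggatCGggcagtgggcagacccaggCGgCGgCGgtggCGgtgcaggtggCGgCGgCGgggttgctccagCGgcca
Barx1: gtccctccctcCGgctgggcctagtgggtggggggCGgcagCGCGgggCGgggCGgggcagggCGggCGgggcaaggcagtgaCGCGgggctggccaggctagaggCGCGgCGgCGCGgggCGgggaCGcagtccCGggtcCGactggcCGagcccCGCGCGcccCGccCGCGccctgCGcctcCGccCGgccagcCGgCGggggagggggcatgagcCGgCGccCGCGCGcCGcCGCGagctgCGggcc
The letters CG, which read the same on both strands, occurred 12 and 7 times in the Barhl1 windows, 36 times in the Barhl2 window and 40 times in the Barx1 window. Over 32851 mouse promoter windows of the same length the median was 6. At least 36 CG dinucleotides were present in 2.58% of these windows and at least 40 in 1.31%, whereas 33.5% held at least 12 and 46.3% at least 7. By this count the Barhl2 and Barx1 starts are dense in CpG and the Barhl1 starts are closer to the median.

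The islands are named by the distance of their midpoint from the annotated gene start, and their positions are those of the mm9 build, which the headers of 6 arrays name. Barhl1 carried 5 islands. They were a promoter island at -1.6 kb (chr2:28773265-28773726, 4 probes), one just inside the gene (the start island, chr2:28771352-28771919, 6 probes, 53 to 568 bases from the start) and islands inside the gene at +4.7 kb (chr2:28766852-28767586, 4 probes), +6.6 kb (chr2:28765104-28765612, 4 probes) and +7.9 kb (chr2:28763906-28764258, 3 probes). Barhl2 carried a long island over its start (chr5:106886130-106888606, 19 probes) and islands annotated as downstream at +6.2 kb (chr5:106880786-106881156) and +9.7 kb (chr5:106877237-106877730). Barx1 carried a promoter island at -3.3 kb (chr13:48755179-48755569, 4 probes), a start island (chr13:48758552-48759085, 6 probes), one inside the gene at +2.8 kb (chr13:48761248-48761676, 5 probes) and a downstream one at +5.8 kb (chr13:48764197-48764704, 4 probes). Barx2 carried 1 island, from its promoter into the start (chr9:31720446-31722883, 22 probes). The annotation gave promoter, inside and downstream and did not separate exons from introns.

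**Figure D1:**
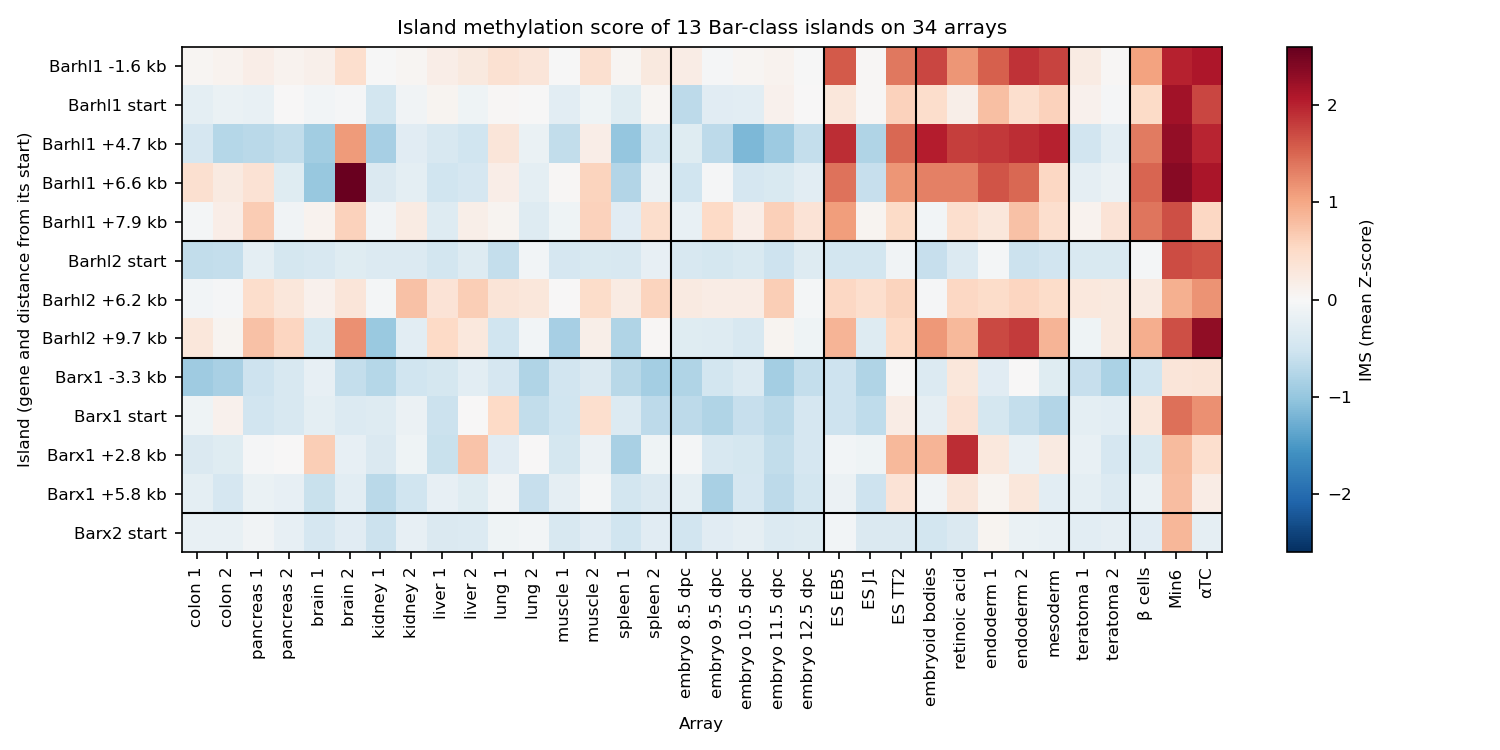
IMS (mean Z-score, colour) of the 13 islands (vertical axis) on each of the 34 arrays (horizontal axis), with lines between groups of arrays and between genes. Red blocks stand at Barhl1 -1.6, +4.7 and +6.6 kb and Barhl2 +9.7 kb for the ES arrays other than J1, and the highest values at the start islands of Barhl1, Barhl2 and Barx1 are those of Min6 and αTC.

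In ES cells differentiated in vitro the largest differences from adult tissue among these islands lay in Barhl1. At Barhl1 +4.7 kb the 5 differentiated arrays read 2.04 (embryoid bodies), 1.81 (retinoic acid), 1.84 and 1.92 (endoderm) and 2.00 (mesoderm). The 16 adult arrays ran from -0.997 over a median of -0.50 to 1.11, and the 5 embryos from -1.17 over -0.68 to -0.32. All differentiated arrays lay above all adult arrays and all embryos, and the nearest adult array was brain replicate 2. The mean was 1.92 ± 0.10 (SD, n = 5) in differentiated cells, -0.39 ± 0.54 (n = 16) in adult tissue and -0.74 ± 0.32 (n = 5) in embryos. The difference from adult tissue was 2.31 ± 0.29 (SE of the fit), and 2.41 without brain replicate 2. Each of the 4 probes contributed, with differences of 2.07 to 2.61. Input was well above background in 75.7% of the readings of this island, and on all arrays at only 1 of its 4 probes.

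The promoter island of Barhl1 at -1.6 kb showed the same order of groups. Differentiated arrays read 1.74 (embryoid bodies), 1.15 (retinoic acid), 1.55 and 1.87 (endoderm) and 1.75 (mesoderm). Adult tissue ran from -0.02 over a median of 0.14 to 0.44 and embryos from -0.02 over 0.06 to 0.20, so neither group reached the differentiated arrays. The difference from adult tissue was 1.43 ± 0.14, from a mean of 1.61 ± 0.28 in differentiated cells and 0.18 ± 0.15 in adult tissue. This was the island with the best input signal, at 99.3% of its readings well above background.

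The Barhl1 start island lay between these 2 and changed less. Differentiated arrays read 0.46 (embryoid bodies), 0.16 (retinoic acid), 0.78 and 0.43 (endoderm) and 0.60 (mesoderm), against -0.48 to 0.07 in adult tissue, with a median of -0.11. The groups did not overlap, but the lowest differentiated array and the highest adult array were close. The difference was 0.61 ± 0.11, and only 1 of 5 differentiated arrays, endoderm replicate 1, was past 0.75. Over its 6 probes the difference ran from 0.11 to 1.02, and the 3 largest were those of the 3 probes farthest from the start.

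Barhl1 +6.6 kb was high in differentiated cells too, but its adult values were scattered. Differentiated arrays read 1.31 (embryoid bodies), 1.30 (retinoic acid), 1.64 and 1.50 (endoderm) and 0.53 (mesoderm), and adult arrays ran from -0.98 over a median of -0.21 to 2.58. The highest value of all 34 arrays at this island was that of brain replicate 2, whereas brain replicate 1 was the lowest adult array. The difference from adult tissue was 1.24 ± 0.35 with that array and 1.41 without it, and without it the adult arrays reached 0.58, just above mesoderm. At Barhl1 +7.9 kb differentiated arrays (-0.08 to 0.75) lay within a range much like that of adult tissue (-0.34 to 0.66), and the difference was 0.26 ± 0.17.

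**Figure D2:**
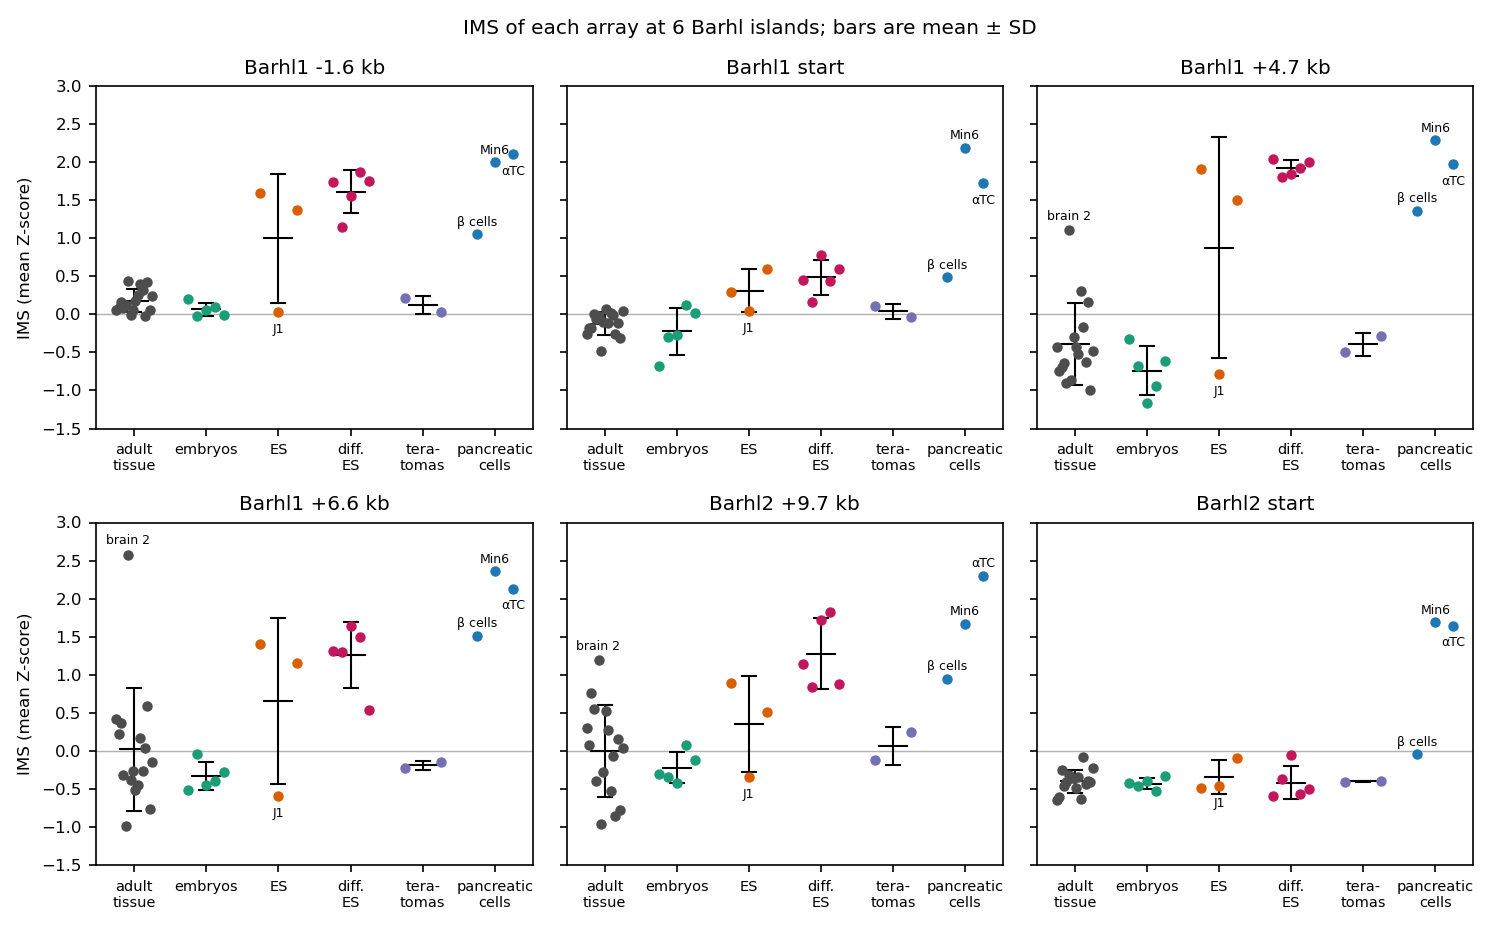
IMS (vertical axis, mean Z-score) of each array at 6 Barhl islands, by group (horizontal axis), with points for arrays and bars for the mean ± SD of each group other than the pancreatic cells. At Barhl1 -1.6 kb and +4.7 kb the 5 differentiated (diff. ES) arrays sit above every adult array, J1 sits with adult tissue away from the other ES lines, and at the Barhl2 start only Min6 (1.69) and αTC (1.64) leave the level of the other arrays.

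Barhl2 behaved differently at its start and behind the gene. At the Barhl2 start, differentiated arrays read -0.59 (embryoid bodies), -0.36 (retinoic acid), -0.06 and -0.56 (endoderm) and -0.51 (mesoderm), and adult arrays ran from -0.64 to -0.07. The means were -0.42 ± 0.22 and -0.40 ± 0.15, a difference of -0.02 ± 0.09, and 9 of 19 probes had the higher mean in differentiated cells. At Barhl2 +9.7 kb the differentiated arrays read 1.14 (embryoid bodies), 0.84 (retinoic acid), 1.71 and 1.82 (endoderm) and 0.88 (mesoderm). Adult tissue ran from -0.97 over 0.05 to 1.19 there, so the groups overlapped through brain replicate 2, and the difference was 1.28 ± 0.26, or 1.36 without that array. The 3 probes of this island had the weakest input of the 13 islands, with 57.8% of readings well above background. Barhl2 +6.2 kb read -0.03 to 0.55 in differentiated cells and -0.08 to 0.76 in adult tissue, with a difference of 0.11 ± 0.12.

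At Barx1 the differences were smaller. At Barx1 +2.8 kb, inside the gene, the retinoic acid array read 1.91 and embryoid bodies 0.88, whereas endoderm read 0.28 and -0.20 and mesoderm 0.24. Adult tissue ran from -0.84 over -0.18 to 0.75 (liver replicate 2), so the arrays labelled TT2 lay above all adult arrays and the arrays from EB5 among them. The difference of the means was 0.78 ± 0.23, from 0.62 ± 0.82 against -0.15 ± 0.40. Barx1 -3.3 kb differed by 0.45 ± 0.13 (-0.35 to 0.30 in differentiated cells, -0.93 to -0.21 in adult tissue) and Barx1 +5.8 kb by 0.40 ± 0.12 (-0.27 to 0.32 against -0.69 to -0.05), and both overlapped. The Barx1 start island gave -0.10 ± 0.17, with differentiated arrays at -0.75 to 0.37 and adult arrays at -0.68 to 0.51.

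Barx2 was low in adult tissue, embryos and ES cells. Its long start island read -0.49 (embryoid bodies), -0.39 (retinoic acid), 0.07 and -0.18 (endoderm) and -0.20 (mesoderm), against -0.55 to -0.07 in adult tissue and -0.49 to -0.24 in embryos. The difference from adult tissue was 0.05 ± 0.08.

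The ES cell groups, embryos and adult tissue were fitted together with limma over all 13616 islands, and an island is referred to as called where its p after Benjamini-Hochberg adjustment was under 0.05. Between differentiated ES cells and adult tissue 8 of the 13 Bar-class islands were called, and all 8 were higher in differentiated cells. Over all islands 23.2% were called, 14.4% as higher. The 8 were Barhl1 -1.6 kb, start, +4.7 kb and +6.6 kb, Barhl2 +9.7 kb, and Barx1 -3.3 kb, +2.8 kb and +5.8 kb. Because the genes were picked with these values in view, nothing is read from this share. The 3 Barx1 islands were no longer called without the retinoic acid array, which left 5 of 13 (24.8% of all islands). Barx1 +2.8 kb was also not called without embryoid bodies, nor Barx1 +5.8 kb without endoderm replicate 2. All differentiated arrays lay above all adult arrays at 3 islands, Barhl1 -1.6 kb, start and +4.7 kb, against 2.51% of all islands. By place, 1 of 4 start islands and 7 of 9 islands away from a start were called, with median differences of 0.02 and 0.78. This split rests on the start that the array annotation counts from, which was not determined for Barhl1. If that is the higher RefSeq start, the lower one lies shortly before Barhl1 +4.7 kb, which would then also be a start island. The shares of all islands called by place are not given, and nothing is read from the split. The median difference of the 13 islands was 0.45, beside -0.01 over all islands.

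**Figure D3:**
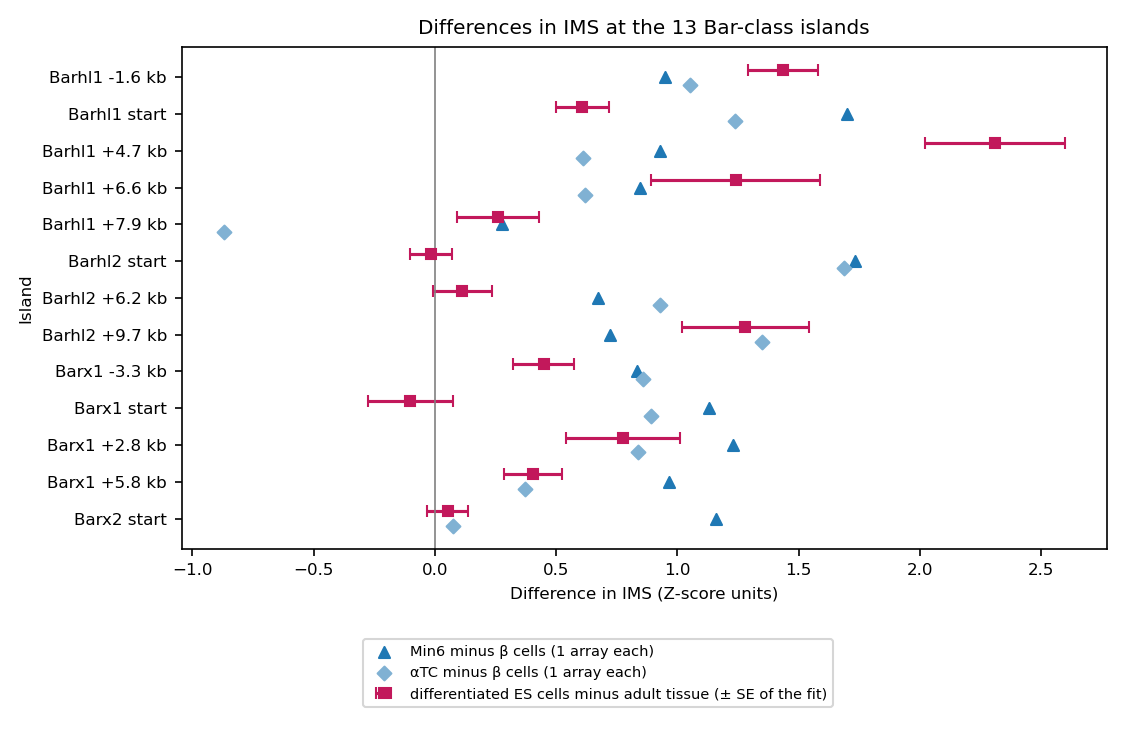
Differences in IMS (horizontal axis, Z-score units) at each of the 13 islands (vertical axis), for differentiated ES cells minus adult tissue (squares, bars are ± SE of the fit) and for Min6 and αTC minus β cells (triangles and diamonds, 1 array each). The squares reach 2.31 at Barhl1 +4.7 kb and lie near 0 at the Barhl2, Barx1 and Barx2 starts, whereas the triangles reach 1.73 at the Barhl2 start.

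Slides that held arrays of both groups allowed the difference to be read within a slide. On the slide shared by endoderm replicate 2 and pancreas replicate 1 it was 2.61 at Barhl1 +4.7 kb, 1.71 at -1.6 kb, 0.62 at the start, 1.13 at +6.6 kb and 1.07 at Barhl2 +9.7 kb. On the slide shared by embryoid bodies and brain replicate 2 it was 0.93, 1.29, 0.49, -1.27 and -0.05 at the same islands. The first 3 islands thus differed in the same direction on both slides, whereas Barhl1 +6.6 kb and Barhl2 +9.7 kb did so on 1 of them. With slide or with scan day as a block in the fit, 3 of the 13 islands were called, Barhl1 -1.6 kb, start and +4.7 kb, where 15.1% and 16.5% of all islands were called. The differentiated arrays enter the slide fit only through the slides just described, so it is no separate reading. With the version of the scanner software as a block 4 were called, the same 3 and Barhl2 +9.7 kb, beside 19.3% of all islands.

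Against embryos, differentiated ES cells were higher at 13 of 13 islands, and 8 were called, as were 21.1% of all islands (11.8% as higher). The differences at these 8 were 2.66 ± 0.36 at Barhl1 +4.7 kb, 1.59 ± 0.43 at Barhl1 +6.6 kb, 1.55 ± 0.18 at Barhl1 -1.6 kb, 1.50 ± 0.32 at Barhl2 +9.7 kb, 1.02 ± 0.29 at Barx1 +2.8 kb and 0.50 to 0.71 at Barhl1 start, Barx1 -3.3 kb and Barx1 +5.8 kb. The groups did not overlap at 6 islands (8.67% of all islands), which were Barhl1 -1.6 kb, start, +4.7 kb and +6.6 kb, Barhl2 +9.7 kb and Barx1 -3.3 kb. With slide as a block 9 of 13 islands were higher and 1 was called, the Barhl1 start. The difference was then 1.04 ± 0.87 at Barhl1 +4.7 kb and -0.13 ± 0.94 at +6.6 kb. No slide held both groups, so that fit compares them only indirectly. It links endoderm replicate 2 and embryoid bodies to the embryo of 8.5 days through adult, EB5 and TT2 arrays. With scan day as a block 3 were called (Barhl1 -1.6 kb and start and Barx1 -3.3 kb) and with software version 2 (Barhl1 start and Barx1 -3.3 kb). Over all islands these fits called 0.69%, 2.68% and 1.41%. This comparison shares its differentiated arrays with the one before, and all comparisons with adult tissue share the adult arrays.

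The embryos were not high at any of these islands. They were lower than adult tissue at 12 of 13 islands, by up to 0.40 ± 0.17 (Barx1 start, -0.64 ± 0.13 in embryos), and Barhl1 +7.9 kb was higher by 0.18 ± 0.17. Of the 13 islands 0 were called, against 8.64% of all islands, where the same fit gave 3015 islands at an unadjusted p under 0.05. With slide as a block 8 of 13 were lower, and Barhl1 +4.7 kb was then higher by 0.73 ± 0.78. No slide held both groups, so that fit compares them only indirectly. It runs from the embryo of 8.5 days over TT2 on its slide to EB5 and pancreas replicate 2 on another, with the ES lines taken as equal. No embryo array reached 0.75 at any of the 13 islands, the highest being 0.63 at Barhl2 +6.2 kb at 11.5 days.

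The undifferentiated lines split, with EB5 and TT2 near the differentiated arrays and J1 near adult tissue. At Barhl1 +4.7 kb EB5 read 1.91, TT2 1.50 and J1 -0.78. At Barhl1 -1.6 kb the 3 lines read 1.59, 1.37 and 0.03, and at Barhl1 +6.6 kb 1.41, 1.16 and -0.59. At Barhl2 +9.7 kb they read 0.89, 0.51 and -0.34. J1 was thus the lowest line at each of these islands, and at Barhl1 +4.7 kb it lay inside the adult range. At the Barhl2 start the lines read -0.49, -0.09 and -0.47 and stayed within or next to the adult range. At Barx1 +2.8 kb TT2 read 0.84, whereas EB5 and J1 read -0.07 and -0.10.

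Set against adult tissue with all 3 lines, undifferentiated ES cells were higher by 1.26 ± 0.35 at Barhl1 +4.7 kb and by 0.82 ± 0.18 at Barhl1 -1.6 kb, and without J1 by 2.09 and 1.30. With all 3 lines 1 of the 13 islands was called, Barhl1 -1.6 kb, beside 2.3% of all islands (0.984% as higher). Without J1 the count was 3, with Barhl1 start and +4.7 kb added, beside 8.45% of all islands. Without EB5 or without TT2 limma called 0 of all 13616 islands, with 1444 and 1147 at an unadjusted p under 0.05. Without brain replicate 2 the count was 2, beside 2.42% of all islands. Barhl1 -1.6 kb and +4.7 kb were also higher on the slide of EB5 and pancreas replicate 2, by 1.50 and 2.55, and on the slide of TT2 and the embryo of 8.5 days, by 1.17 and 1.82. In the authors' own table the J1 column held few of these probes. It gave 0.45 at Barhl1 -1.6 kb, 0.28 at Barhl1 +6.6 kb and -1.17 at Barhl2 +9.7 kb, each from 1 probe. At Barhl1 +6.6 kb the J1 scanner file gave -0.59, of opposite sign, and EB5 and TT2 had deposited means of 1.56 and 1.07. The J1 column held no probe of Barhl1 +4.7 kb, where EB5 and TT2 gave means of 1.40 and 1.59.

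The differences between differentiated and undifferentiated ES cells were mostly smaller once J1 was left out. With all 3 lines the differences were 1.05 ± 0.41 at Barhl1 +4.7 kb, 0.93 ± 0.37 at Barhl2 +9.7 kb, 0.62 ± 0.21 at Barhl1 -1.6 kb and 0.60 ± 0.49 at Barhl1 +6.6 kb. Without J1 they were 0.22, 0.58, 0.14 and -0.02. With slide as a block they were -0.78 ± 0.67, 0.17 ± 0.53, -0.003 ± 0.26 and -1.79 ± 0.73, 3 of the 4 with the opposite sign. That fit draws only on slides shared between groups. The undifferentiated lines enter it through EB5 beside pancreas replicate 2, and J1 and TT2 add nothing. It is therefore no comparison of all 3 lines. Of the 13 islands 0 were called by limma, beside 5.43% of all islands, where 2848 islands had an unadjusted p under 0.05. Without EB5 the count was 2 (Barhl1 -1.6 kb and +4.7 kb, beside 3.25% of all islands), and without TT2 or without the retinoic acid array it was 1 (Barhl1 -1.6 kb, beside 4.8% and 10%).

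Arrays were also set against the line that the labels give as their parent. At Barhl1 +4.7 kb the arrays from EB5 differed from it by -0.07 and 0.01 (endoderm) and 0.09 (mesoderm), and the arrays labelled TT2 by 0.54 (embryoid bodies) and 0.31 (retinoic acid). At Barhl2 +9.7 kb both endoderm arrays lay above EB5, by 0.83 and 0.94, and mesoderm by -0.01, whereas embryoid bodies and retinoic acid cells lay above TT2 by 0.62 and 0.33. At the 3 probes of this island EB5 read 0.116, 1.54 and 1.00. The first value recurred exactly in EB5 at the Barhl1, Barhl2 and Barx2 start islands. At the same probe the lowest differentiated reading, -0.006, recurred exactly at the Barhl2 and Barx2 starts. Repeated values were averaged as read, and whether they are measured ratios was not tested. At Barx1 +2.8 kb the retinoic acid array lay above TT2 by 1.07 and embryoid bodies by 0.04. Barhl1 +7.9 kb was the one island where all 5 arrays lay below their labelled parent, by 0.06 to 0.78, EB5 itself being at 1.08. With 1 array per line these differences have no replicate error.

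**Figure D4:**
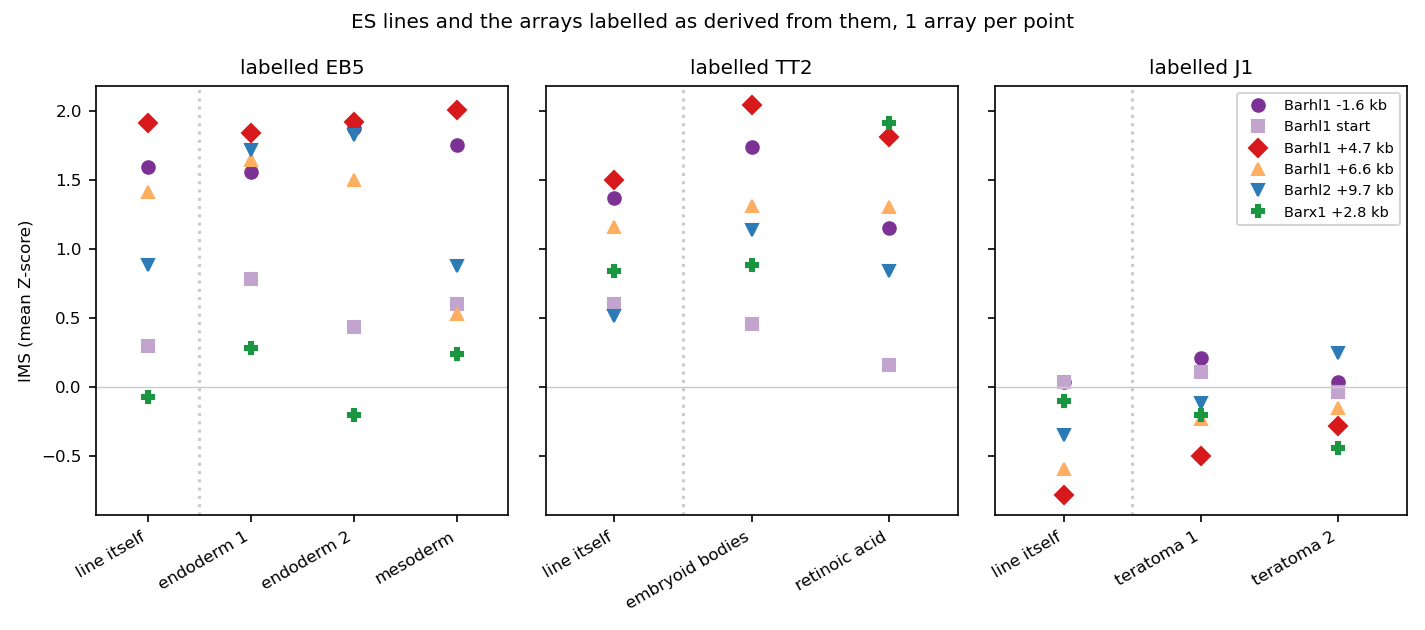
IMS (vertical axis, mean Z-score) of 6 islands in each undifferentiated line and in the arrays labelled as derived from it (horizontal axis), 1 array per point, for the labels EB5, TT2 and J1. Barhl1 -1.6 kb, +4.7 kb and +6.6 kb are above 1 in EB5 and TT2 themselves, and J1 and both teratomas stay at or below 0.24 at all 6 islands.

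The teratomas lay within the adult range at the islands that were high in differentiated cells, with an exception at the Barhl1 start. There teratoma replicate 1 read 0.11, just above the highest adult array (0.07), and replicate 2 read -0.03. The teratoma mean was the same, 0.035, at the probes 53 and 370 bases from that start, and it recurred exactly at probes of other islands. At Barhl1 +4.7 kb the teratomas read -0.50 and -0.28, at Barhl1 -1.6 kb 0.21 and 0.04, at Barhl1 +6.6 kb -0.23 and -0.15 and at Barhl2 +9.7 kb -0.12 and 0.24. Their input was well above background in 100% of readings at Barhl1 -1.6 kb and in 66.7% at the Barhl1 start. It was so in 50% at Barhl1 +4.7 kb and +6.6 kb and in 33.3% at Barhl2 +9.7 kb. The differences of the means from adult tissue ran from -0.21 ± 0.54 (Barhl1 +6.6 kb) to 0.16 ± 0.12 (Barhl1 start), and 0 of 13 islands were called by limma, beside 0.316% of all islands, where 1182 islands had an unadjusted p under 0.05. The parent line of the teratomas is uncertain, as given above, and the share of host cells in them was not measured.

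The pancreatic cell lines read higher than all other arrays at the starts of Barhl1, Barhl2 and Barx1. At the Barhl2 start Min6 read 1.69 and αTC 1.64, beside -0.04 in sorted β cells and -0.26 and -0.46 in whole pancreas, and 18 of 19 probes in Min6 and 17 of 19 in αTC were above 0.75. At the Barhl1 start the values were 2.19 (Min6), 1.73 (αTC) and 0.49 (β cells), with 6 of 6 probes above 0.75 in both lines. At the Barx1 start they were 1.43, 1.19 and 0.30. Both lines were also above every other array at Barhl1 -1.6 kb (2.00 in Min6 and 2.10 in αTC), Barhl2 +6.2 kb (0.91 and 1.17) and, narrowly, Barx1 -3.3 kb (0.31 and 0.33).

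Barx2 separated the lines. Its start island read 0.85 in Min6, -0.23 in αTC and -0.30 in β cells. Of the 19 probes measured, 10 were above 0.75 in Min6 and 0 in αTC. All 10 lay in the promoter, and the probes nearest the start were below 0.75 in both lines. Barhl1 +7.9 kb also differed between the lines, at 1.68 in Min6 and 0.53 in αTC, below the 1.40 of β cells. Going the other way, Barhl2 +9.7 kb was 2.30 in αTC and 1.67 in Min6.

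Counted over the 13 islands, Min6 was more than 0.75 above β cells at 10 islands (10.5% of all islands) and αTC at 8 (13.8%), and both lines at 6 (7.37%). For Min6 the island just past this limit was Barx1 -3.3 kb (0.83) and the one just short of it Barhl2 +9.7 kb (0.72). For αTC they were Barx1 +2.8 kb (0.84) and Barhl1 +6.6 kb (0.62). Min6 exceeded all 16 adult arrays at 12 islands (16.2% of all islands) and αTC at 9 (19.9%). Both lines lay on 1 slide and β cells on another, so slide and cell type cannot be told apart for these comparisons.

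**Figure D5:**
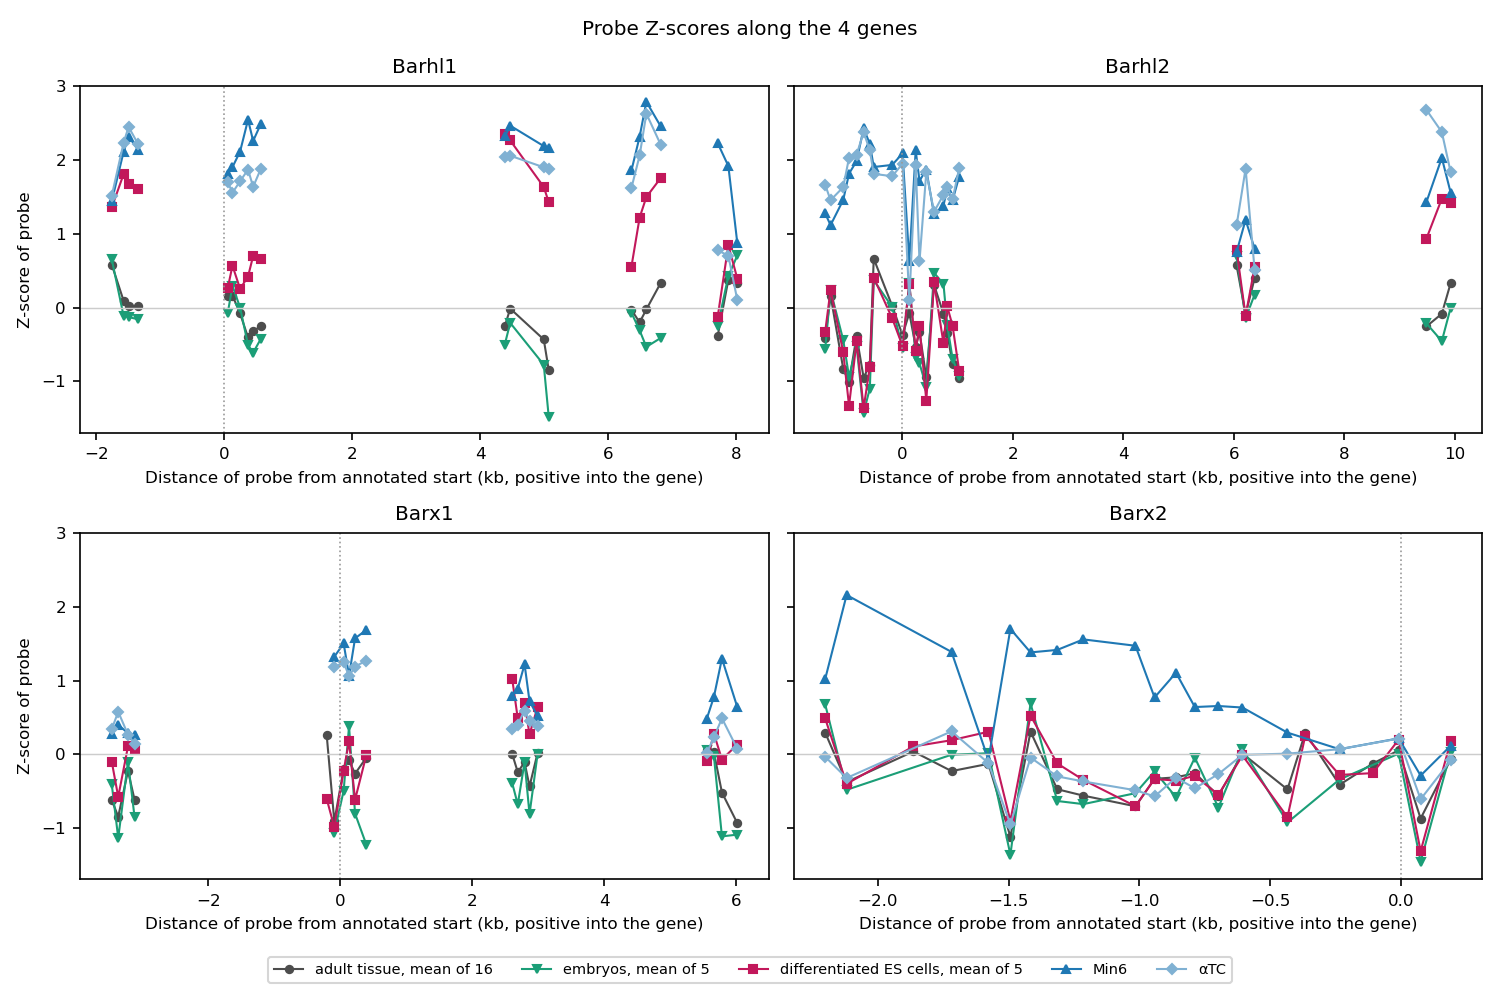
Z-score of each probe (vertical axis) by its distance from the annotated gene start (horizontal axis, kb, positive into the gene) for the 4 genes, as means of adult tissue, embryos and differentiated ES cells and as single arrays for Min6 and αTC; lines join probes of one island. In Barhl1 and at Barhl2 +9.7 kb the differentiated ES cells leave adult tissue and embryos, across the Barhl2 start they follow them closely while Min6 and αTC lie higher, and in Barx2 Min6 alone rises over the promoter.

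Sorted β cells themselves were high at the Barhl1 body and promoter. They read 1.36 at Barhl1 +4.7 kb, 1.51 at +6.6 kb, 1.40 at +7.9 kb and 1.05 at -1.6 kb, and 0.95 at Barhl2 +9.7 kb. The probes of the latter read 0.110, 1.15 and 1.58, and the first value recurred exactly in β cells at probes of Barx2. Whole pancreas read -0.69 and -0.63 at Barhl1 +4.7 kb and 0.17 and 0.09 at -1.6 kb. β cells exceeded all 16 adult arrays at 5 islands (11.6% of all islands), Barhl1 -1.6 kb, start, +4.7 kb and +7.9 kb and the Barhl2 start. They are 1 array on a slide of its own, against which no replicate can be set.

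Within adult tissue the 8 organ means ran from -0.63 (colon) to -0.31 (spleen) at the Barhl2 start and from -0.40 (spleen) to -0.09 (lung) at Barx2. At the Barx1 start they ran from -0.52 (spleen) to 0.002 (colon), with the arrays of lung 1.15 and those of muscle 0.96 apart. At Barhl1 -1.6 kb they ran from 0.03 (kidney) to 0.36 (lung). The spread was wider at Barhl1 +4.7 kb, from -0.74 (spleen) to 0.10 (brain), but the arrays of brain lay 2.01 apart there, and at Barhl1 +6.6 kb, where brain also had the highest mean (0.80), they lay 3.56 apart. The order of organs at these islands therefore rests on brain replicate 2, which shared its slide with the embryoid bodies. Its bound signal was 1.54 times background, the lowest of the 34 arrays, and the part of this in its values was not tested. At Barhl2 +9.7 kb pancreas was highest (0.65, arrays 0.21 apart) and kidney lowest (-0.63, arrays 0.68 apart).

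Ordered over all groups, Barhl1 +4.7 kb ran from Min6 (2.29) and αTC (1.97) over differentiated ES cells (1.92), β cells (1.36) and undifferentiated ES cells (0.88 ± 1.45) to adult tissue (-0.39), teratomas (-0.39) and embryos (-0.74). αTC and differentiated ES cells differed by less than the SD of the latter, as did adult tissue and teratomas, and the undifferentiated lines spread over both ends. At Barhl1 -1.6 kb the order was αTC (2.10), Min6 (2.00), differentiated ES cells (1.61), β cells (1.05), undifferentiated ES cells (1.00 ± 0.84), adult tissue (0.18), teratomas (0.12) and embryos (0.06), and the last 3 were within 1 SD of each neighbour. At the Barhl2 start Min6 and αTC (1.69 and 1.64) were followed by β cells (-0.04) and then by undifferentiated ES cells (-0.35), adult tissue (-0.40), teratomas (-0.40), differentiated ES cells (-0.42) and embryos (-0.43), and none of the latter 5 differed from the next by more than the larger SD.

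The islands followed each other across the 34 arrays to different degrees. Pearson's r was 0.955 between Barhl1 -1.6 kb and +4.7 kb, 0.878 between +4.7 kb and +6.6 kb, and 0.836 between Barhl1 +6.6 kb and Barhl2 +9.7 kb, which lie on different chromosomes. It was 0.831 between the Barhl1 and Barhl2 starts and 0.180 between Barx1 +2.8 kb and Barx2, the lowest of all pairs. These values describe arrays that fall into groups and share slides, and islands on 1 array share its hybridisation.

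For the island with the most probes of each gene, the islands of other genes with the most similar pattern over the 34 arrays were listed. For Barhl1 (start) they belonged to Pitx3 (r = 0.905), Gys2 (0.893) and Grin1 (0.888), and for Barhl2 (start) to Gab1 (0.965), Tal1 (0.959) and En2 (0.949). For Barx1 (start) they belonged to Six2 (0.898), Prdm16 (0.875) and Pitx1 (0.857), and for Barx2 to D430041B17Rik (0.817), Klf4 (0.806) and Zic4 (0.794). Those of Barhl2 were all between 1.32 and 1.78 in Min6 and between 1.35 and 1.74 in αTC. The Klf4 island, of a pluripotency and epithelial factor, at 1.18 in Min6 and -0.32 in αTC, split the lines as Barx2 did.

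Other genes of the same homeobox class and of the pathways around the Bar factors were set beside these values. Of 43 other NK-like homeobox genes, 37 had 81 islands, of which 27 were called as higher and 1 as lower in differentiated ES cells than in adult tissue, with a median difference of 0.11. Together 34.6% of them were called, beside 23.2% of all islands. The largest differences, taking each gene's island with the most probes, were those of Dbx2 (1.34 ± 0.16), a factor of spinal cord interneurons, Nkx2-6 (1.25 ± 0.13), of pharynx and heart, and Lbx2 (1.13 ± 0.23), all called. The lowest were Nkx2-4 (-0.10 ± 0.11) and Dbx1 (-0.21 ± 0.25), neither of which was called. In Min6 these last islands read 2.05 and 2.31.

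Of 16 genes that act with or beside Barhl factors in neurons, 15 had 33 islands, of which 8 were called as higher and 2 as lower, with a median of 0.15. In all 30.3% of them were called, beside 23.2% of all islands (14.4% as higher). Neurod1 (1.27 ± 0.23), a proneural factor, Pou4f1 (0.72 ± 0.15), of sensory neurons, and Gfi1 (0.55 ± 0.09), of inner ear hair cells, were called, whereas Lhx2 (-0.20 ± 0.15) and Neurog2 (-0.21 ± 0.09) were not. Of 15 genes that act with Barx factors in stomach, tooth and mesenchyme, all had islands, 33 in number, of which 3 were called as higher and 5 as lower, with a median of -0.05. In all 24.2% of them were called, close to the 23.2% of all islands. Fgf8 (0.76 ± 0.15), a signal of the oral epithelium, was called as higher, and Sox9 (0.22 ± 0.10) and Bmp4 (0.15 ± 0.11) were not called. Foxf1 (-0.41 ± 0.11), of gut mesenchyme, and Hoxa5 (-1.40 ± 0.41) were called as lower, and the Hoxa5 island was high in adult tissue (1.30 ± 1.06). Against embryos 34 of the 81 NK-like islands, 8 of the 33 Barhl-related and 6 of the 33 Barx-related islands were called as higher, beside 11.8% of all islands, and 0 as lower. Between teratomas and adult tissue limma called 0 islands of the 3 lists, beside 0.316% of all islands.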

How the data were processed

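Mouse mDIP arrays of 34 samples were analysed. The authors scanned them and extracted spot intensity with Agilent Feature Extraction, which subtracted background and applied a linear dye normalization, and the deposited scanner files give a log10 ratio of bound over input. In the table deposited by the authors each probe has a Z-score, a score that their methods compute by probe melting temperature. Here a Z-score was computed from the log10 ratios over all probes of an array without control spots and outlier spots, and without the melting temperature step. The 492 probes without coordinates were left out. Arrays used a grid of 97651 (14 arrays) or 88737 probes (20 arrays), and an island's score used the probes present. Groups came from the samples' labels. Contrasts were fitted over 13616 islands with limma 3.58.1 (lmFit, eBayes) in R 4.3.3, teratomas with adult tissue alone and the other groups together. On simulated data of 13616 islands, 200 of them changed by 1, the limma step found again 92.5% of the changed islands in the contrast of differentiated ES cells with adult tissue and 75.5% in that of teratomas with adult tissue. Of its calls 5.13% and 6.21% were unchanged islands. The simulated arrays were independent and all had the adult mean and SD of each island. Unequal spreads of the groups and shared slides were thus not covered. Other steps used Python 3.11.15. Per gene, the similar islands named are the 3 with the highest r, and per list the 3 genes with the largest and the 2 with the smallest difference. The members and lists were chosen with earlier results of these data known. The number of arrays per group limits the precision, and alternatives are given in the closing section.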

Additional observations from a re-analysis of the deposited data

Results flagged for a closer look

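At Barhl2 +6.2 kb the embryoid bodies read -0.033, whereas the other 4 differentiated arrays lay between 0.48 and 0.55. The gap to the nearest array was 0.867 of the range of the 5 arrays, above the critical value of 0.71 of Dixon's test. Of 26 sets of 4 to 10 arrays examined, 1 stood out in this way, and chance gives about 1 in 20. The island has 3 probes.

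At the Barhl1 start, EB5 read 0.29 and the 3 arrays from it were higher, by 0.49 and 0.14 (endoderm) and 0.30 (mesoderm), whereas TT2 read 0.60 and the arrays labelled as derived from it were lower, by -0.14 (embryoid bodies) and -0.44 (retinoic acid). It was the 1 island of 13 where all arrays of one label moved one way and all of the other the opposite way. The difference was not tested. At the probe 53 bases from the start EB5 held the repeated value 0.116 given above.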

How the results depend on the processing

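Of 8 islands called for differentiated ES cells against adult tissue, 5 were called on median-centred log2 ratios (16.3% of all islands). With slide as a block 3 were called (15.1%), with scan day 3 (16.5%) and with software version 4 (19.3%). Leaving out 1 array gave 5 (without retinoic acid) to 8. Settings that scored fewer islands called 2 of 5 (at least 5 probes, 21% of all islands), 2 of 4 (the deposited table, 22.3%) and 4 of 6 (input well above background on all arrays, 22.9%). Barhl1 +4.7 kb, which had the largest difference, was not scored in these 3 settings. Against embryos the 8 became 5 with normexp background (6.1% of all islands). They became 3 with scan day (2.68%), 1 with slide (0.69%) and 2 with software version as a block (1.41%). The count was 2 of 5 with at least 5 probes (19.3%), 2 of 4 in the deposited table (19.7%) and 3 of 6 with the input filter (21.8%). For undifferentiated ES cells against adult tissue the 1 island became 0 with median and MAD, log2 ratios, scan day as a block and the methods' t-test, where 0 of all 13616 islands were called. It became 0 also with normexp (6 of all islands called), software version as a block (82), the compared groups alone (94) and at least 5 probes (183 of 8932). The count was 2 in the deposited table (26.4% of all islands called), with the input filter (2.81%) and without brain replicate 2 (2.42%, chosen after seeing the data). It was also 2 with slide as a block (2.27%), which rests on EB5 beside pancreas replicate 2. With slide as a random block it was 3 (2.67%), and leaving out 1 array gave 0 to 3. For differentiated against undifferentiated ES cells the 0 became 1 in the deposited table, where 22.7% of all islands were called. It became 1 with the input filter (6.79%), and leaving out 1 array gave 0 to 2. The 11 islands higher in differentiated ES cells than in adult tissue were 7 with slide as a block, 3 of 5 with at least 5 probes, 3 of 4 in the deposited table and 4 of 6 with the input filter. More than 0.75 above β cells in the deposited table were 4 of 4 islands in Min6 and 1 of 4 in αTC. The share of all islands past this limit in that table is not given. On the main scores αTC passed it at Barhl1 start (1.24), Barhl2 start (1.69) and Barx1 +2.8 kb (0.84) and not at Barx2 (0.08). In the deposited table αTC therefore fell short at the Barhl1 start, the Barhl2 start or both. The slides that hold differentiated and adult arrays are that of embryoid bodies and brain replicate 2 and that of endoderm replicate 2 and pancreas replicate 1. No slide holds differentiated arrays and embryos. With slide as a block Barhl1 +6.6 kb turned direction, to -0.068 against adult tissue and -0.13 against embryos. These were the 2 turns of direction among called differences, in 683 values of single differences under the alternatives, and 51 values of differences that were not called also changed sign. By size, 629 of the other values moved by less than 1 SD between arrays and 52 by more. The cause of these changes was not tested beyond the fewer islands scored. Embryos and teratomas against adult tissue stayed at 0 in every alternative run, but for embryos scan day, slide and software version as a block called only 0, 3 and 7 of all 13616 islands. With the replicate number as a block, teratomas against adult tissue also gave 0 islands, the samples sharing only a number, and slide and scan day could not be fitted there. Probes on both grids, also chosen after seeing the data, left the counts within 1.5 times. The input signal over background limits Barhl2 +9.7 kb most, with 57.8% of readings well above background.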
